A study of Mus musculus with 8 samples.

Results

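The apical surface of the absorptive gut cell was followed through 10 genes, Vil1, Espn, Myo1a, Ezr, Cdhr2, Cdhr5, Ush1c, Krt20, Ceacam1 and Ceacam20. They were chosen by gene symbol, and all 10 were found among the 34745 genes of each deposited table. All 10 passed the expression filter, which left 9913 tested genes. The libraries came from crypts, the glands of the intestinal epithelium, of wild-type C57BL/6 mice on day 5. The DSS group (n = 4) had received dextran sulfate sodium, which damages the intestinal epithelium and is used to model colitis. The DSS+CA group (n = 4) had received CA as well, read here as the bile acid cholic acid from the series title. Every library therefore came from DSS-treated mice, and no library without DSS was analysed here. The labels state no gut segment, dose or route, and do not say whether replicates were separate animals, so a p-value here reflects no more than the variation among 8 libraries, part of which may be technical.

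The brush border is the array of microvilli on the apical face of an enterocyte. Each microvillus holds a core of parallel actin filaments bundled by villin and espin, tied to the membrane by myosin 1a and ezrin. Protocadherins at the microvillus tips link neighbouring microvilli through an adhesion complex anchored by harmonin, the product of Ush1c, and keratin filaments lie beneath in the terminal web. CEACAM proteins are immunoglobulin-like membrane glycoproteins. CEACAM1 carries inhibitory tyrosine motifs and occurs on epithelial and immune cells, whereas CEACAM20 is a microvillus protein of intestinal epithelium and a substrate of the apical phosphatase PTPRH.

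Total counts lay between 13334012 and 17973196 per library. The 6 epithelial markers summed to 5623 to 7334 CPM in DSS (counts scaled to a common library size) and 5665 to 7059 CPM in DSS+CA. The 8 enterocyte markers summed to 23785 to 105599 CPM in DSS and 28711 to 116855 CPM in DSS+CA. The 7 colonocyte markers summed to 253 to 438 CPM in DSS and 417 to 722 CPM in DSS+CA, with Car1 and Hoxb13 at or near 0 counts and Car4 and Slc26a3 the most abundant. The mitochondrial share of counts was 16.2% to 27.7% in DSS and 9.72% to 20.5% in DSS+CA. DSS 2, DSS 3 and DSS+CA 3 stood apart by the mean length of a counted gene, 1423 to 1448 bases against 1719 to 2412 bases in the other 5 libraries. The 10 genes together took 0.622% to 1.40% of a library's counts, least in DSS+CA 3, DSS 2 and DSS 3.

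Of the 10 genes, Ceacam20 alone had groups that did not overlap in CPM. None of the 10 passed an adjusted p of 0.05 with edgeR's quasi-likelihood test, against 0.131% of all tested genes (0.0404% higher and 0.0908% lower in DSS+CA). A single gene, Ceacam20, had an unadjusted p below 0.05, against 7.82% of all genes and 4.85% lower in DSS+CA. With DESeq2, 1 of the 10, Ceacam20, passed an adjusted p of 0.05, against 2.22% of all genes and 1.7% lower in DSS+CA. Differences are given as the log2 fold change of DSS+CA against DSS. In 9 of the 10 this was below 0, with a median of -0.21 over the 10 genes and 0.018 over all tested genes, of which 48.1% were below 0. With total count scaling 5 of the 10 were below 0, and Vil1, Ezr, Myo1a, Cdhr5 and Ush1c were above it.

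The sequence before the start of each gene is shown for 3 genes: Ceacam20, the gene with the largest difference, its relative Ceacam1, and Vil1, whose group means were 2217 and 2228 CPM. Each run is the 250 bases upstream of the RefSeq start on GRCm38.p6, read 5′ to 3′ on the gene's strand. Capitals mark ACAAAG, and in Ceacam20 also the CDX-type match TTTATNG.
Ceacam20 (chr7:19965162-19965411, plus strand): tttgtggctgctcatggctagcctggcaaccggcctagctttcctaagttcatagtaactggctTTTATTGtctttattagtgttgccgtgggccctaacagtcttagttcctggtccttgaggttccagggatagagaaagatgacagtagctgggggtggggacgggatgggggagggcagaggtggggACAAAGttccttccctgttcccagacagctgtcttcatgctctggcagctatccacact
Ceacam1 (chr7:25477626-25477875, minus strand): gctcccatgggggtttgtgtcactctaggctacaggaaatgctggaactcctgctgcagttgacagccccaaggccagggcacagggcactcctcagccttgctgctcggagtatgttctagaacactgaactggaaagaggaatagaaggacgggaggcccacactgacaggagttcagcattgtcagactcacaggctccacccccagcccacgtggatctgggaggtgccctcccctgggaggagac
Vil1 (chr1:74409134-74409383, plus strand): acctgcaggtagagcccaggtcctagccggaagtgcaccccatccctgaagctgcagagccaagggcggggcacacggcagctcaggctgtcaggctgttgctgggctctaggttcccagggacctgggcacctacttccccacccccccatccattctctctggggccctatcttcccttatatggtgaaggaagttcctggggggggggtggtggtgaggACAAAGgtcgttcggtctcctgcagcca
Promoters were listed for all 10 genes, 12 in number because Espn has several starts. On either strand, TTTATNG, a form of the site of the intestinal CDX factors, was found in 3 of the 12 (Ceacam20, Krt20 and 1 start of Espn) and in 9.81% of all 32851 promoters. The Ceacam20 match began 186 bases before the start. Those of Espn and Krt20 lay on the opposite strand, 197 and 30 bases before the start, and the Krt20 match reads CTATAAA on the gene's strand. The HNF4-type site CAAAGTCCA and the interferon-type IRF site were found in 0 of the 12, and in 0.384% and 2.98% of all promoters. The shorter ACAAAG, chosen after these sequences were read, was found in Ceacam20 and Vil1, 59 and 28 bases before the start, and in 16.5% of all promoters. These are matches of letters in this window only.

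Villin, the actin-bundling and severing protein of the microvillus core, is encoded by Vil1 (ENSMUSG00000026175, GRCm38 chromosome 1, 74409376 to 74435559). Vil1 was at 2754, 1572, 2140 and 2401 CPM in DSS 1 to 4 and at 2560, 2212, 1609 and 2531 CPM in DSS+CA 1 to 4. The groups overlapped throughout their range, and the lowest library of each was DSS 2 and DSS+CA 3. The log2 fold change was 0.0074 (SE 0.336, edgeR adjusted p = 0.999), and its sign changed in 9 of 16 alternatives, within -0.13 to 0.19.

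Myosin 1a, the motor that joins the actin core to the lateral membrane, is encoded by Myo1a (ENSMUSG00000025401, chromosome 10, 127705170 to 127720887). Myo1a was at 1554, 806, 1235 and 1359 CPM in DSS 1 to 4 and at 1363, 1232, 849 and 1433 CPM in DSS+CA 1 to 4. It had the same low libraries as Vil1, and its groups overlapped (log2 fold change -0.022, SE 0.336, edgeR adjusted p = 0.999; the sign changed in 5 of 16 alternatives).

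Ezrin, which links actin filaments to membrane proteins, is encoded by Ezr (ENSMUSG00000052397, chromosome 17, 6738041 to 6782784). Ezr was at 1211, 904, 861 and 1086 CPM in DSS 1 to 4 and at 996, 932, 884 and 1224 CPM in DSS+CA 1 to 4. It varied least of the 10 genes, by 1.42-fold from the lowest to the highest library, and its groups overlapped (log2 fold change -0.0091, SE 0.298, edgeR adjusted p = 0.999; the sign changed in 6 of 16 alternatives).

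Espin, a second class of actin bundler, is encoded by Espn (ENSMUSG00000028943, chromosome 4, 152120331 to 152152371). Espn was at 77.4, 44.9, 86.9 and 69.7 CPM in DSS 1 to 4 and at 51.1, 57.5, 32.9 and 58.9 CPM in DSS+CA 1 to 4. Only DSS 2 among the DSS libraries lay within the range of DSS+CA. The log2 fold change was -0.48 (SE 0.307, edgeR adjusted p = 0.859) and stayed between -0.64 and -0.26 in the 16 alternatives.

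The adhesion complex of the microvillus tips was represented by its protocadherins and their anchor. Cdhr2 (ENSMUSG00000034918, chromosome 13, 54701461 to 54736662) encodes protocadherin-24. Cdhr2 was at 1559, 813, 1175 and 1373 CPM in DSS 1 to 4 and at 1166, 1071, 454 and 1004 CPM in DSS+CA 1 to 4. All DSS+CA libraries lay below 3 of the 4 DSS libraries, while DSS 2 lay inside the DSS+CA range (log2 fold change -0.41, SE 0.378, edgeR adjusted p = 0.934). Without DSS+CA 3 the log2 fold change of Cdhr2 was -0.19.

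Cdhr5 (ENSMUSG00000025497, chromosome 7, 141269085 to 141276786) encodes mucin-like protocadherin, the partner of protocadherin-24 between microvilli. Cdhr5 was at 1108, 406, 675 and 926 CPM in DSS 1 to 4 and at 952, 707, 294 and 825 CPM in DSS+CA 1 to 4. The groups overlapped and the spread inside each was wide, 2.73-fold in DSS and 3.23-fold in DSS+CA (log2 fold change -0.17, SE 0.432, edgeR adjusted p = 0.999). Its sign changed without DSS 1 (0.054), without DSS+CA 3 (0.088) and with total count scaling (0.032).

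Harmonin, the scaffold of the complex, is encoded by Ush1c (ENSMUSG00000030838, chromosome 7, 46195350 to 46238503). Ush1c was at 205, 152, 269 and 203 CPM in DSS 1 to 4 and at 184, 187, 142 and 201 CPM in DSS+CA 1 to 4. DSS 3 was the highest library for Ush1c and for Espn, whereas DSS 1 was the highest DSS library for 7 of the 10 genes. The groups overlapped (log2 fold change -0.22, SE 0.283, edgeR adjusted p = 0.976).

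Keratin 20, an intermediate filament protein of differentiated intestinal cells, is encoded by Krt20 (ENSMUSG00000035775, chromosome 11, 99428403 to 99438150). Krt20 was at 2020, 4113, 2361 and 2608 CPM in DSS 1 to 4 and at 1701, 2039, 3996 and 1895 CPM in DSS+CA 1 to 4. Its order of libraries was unlike that of the other genes, with DSS 2 and DSS+CA 3 the highest. They were the highest with total count scaling as well, at 2999.9 and 2931 CPM. The log2 fold change was -0.20 (SE 0.401, edgeR adjusted p = 0.996), and 0.048 without DSS 2.

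CEACAM1, a cell adhesion receptor, is encoded by Ceacam1 (ENSMUSG00000074272, chromosome 7, 25461707 to 25477603). Ceacam1 was at 897, 321, 227 and 609 CPM in DSS 1 to 4 and at 382, 288, 199 and 376 CPM in DSS+CA 1 to 4. DSS 1 and DSS 4 lay above every DSS+CA library, while DSS 2 and DSS 3 lay within their range. The log2 fold change was -0.72 (SE 0.441, edgeR adjusted p = 0.824), -0.31 without DSS 1, and -1.15 (edgeR adjusted p = 0.0424) without DSS 2, DSS 3 and DSS+CA 3.

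CEACAM20 is encoded by Ceacam20 (ENSMUSG00000070777, chromosome 7, 19965412 to 19991113). Ceacam20 was at 144, 69.2, 47.8 and 113 CPM in DSS 1 to 4 and at 33.3, 32.2, 21.4 and 32.0 CPM in DSS+CA 1 to 4. Every DSS+CA library lay below every DSS library, as did 2.81% of all tested genes, and 6.05% of them had groups that did not overlap in either direction. The means were 93.3 ± 43.1 and 29.7 ± 5.60 CPM (SD, n = 4), and the log2 fold change was -1.65 (SE 0.370, 3.14-fold lower). This missed the threshold with edgeR (unadjusted p = 0.000895, adjusted p = 0.110) and passed it with DESeq2 (log2 fold change -1.69, adjusted p = 0.00164). Over the 16 alternatives the log2 fold change of Ceacam20 lay between -2.01 and -1.36, with adjusted p between 0.00164 and 0.439.

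Without DSS 2, DSS 3 and DSS+CA 3, a comparison of 2 against 3 libraries, the log2 fold change of Ceacam20 was -2.01 (SE 0.184, edgeR adjusted p = 0.00693). In that comparison 2 of the 10 genes passed, Ceacam20 and Ceacam1, against 6.61% of all genes and 4.25% lower in DSS+CA. It was added after the data were seen. DSS 2 and DSS 3 were the lowest DSS libraries of Ceacam20 (69.2 and 47.8 CPM) and of Ceacam1 (321 and 227 CPM). DSS+CA 3 was the lowest DSS+CA library of both (21.4 and 199 CPM). Leaving out DSS 2 and DSS 3 thus raised the DSS level of both genes, so these p-values give no separate support.

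The summed levels of several marker lists of other cells lay lower in DSS+CA beside these genes. Of their single genes, Itgae, an integrin of intraepithelial T cells, fell with edgeR (log2 fold change -1.90, adjusted p = 0.0380), and no other marker tested passed. The 8 T and NK cell markers summed to 328 to 802 CPM in DSS and 65.3 to 264 CPM in DSS+CA, and all 7 tested were below 0, with none of the 8 at or near 0 counts. The 6 B and plasma cell markers summed to 30.4 to 69.8 CPM in DSS and 6.66 to 22.5 CPM in DSS+CA, the 6 goblet cell markers to 5235 to 7148 CPM and 2995 to 4211 CPM, and the 5 enteroendocrine markers to 170 to 275 CPM and 123 to 162 CPM. The 6 Paneth cell markers were all below 0, and their sums overlapped, at 5802 to 37951 CPM in DSS and 4403 to 17391 CPM in DSS+CA.

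Within DSS, the T and NK cell markers did not follow 1 order. In DSS 1, where Ceacam20 and Ceacam1 were highest, Cd3e (16.4 CPM), Cd8a (54.3 CPM) and Itgae (51.1 CPM) were also highest of the DSS libraries, whereas Gzmb (97.8 CPM) and Cd3g (27.6 CPM) were lowest. The part of these markers in the Ceacam20 difference was not tested. Fewer cells of a type and less RNA per cell cannot be told apart in these bulk samples.

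**Figure D1:**
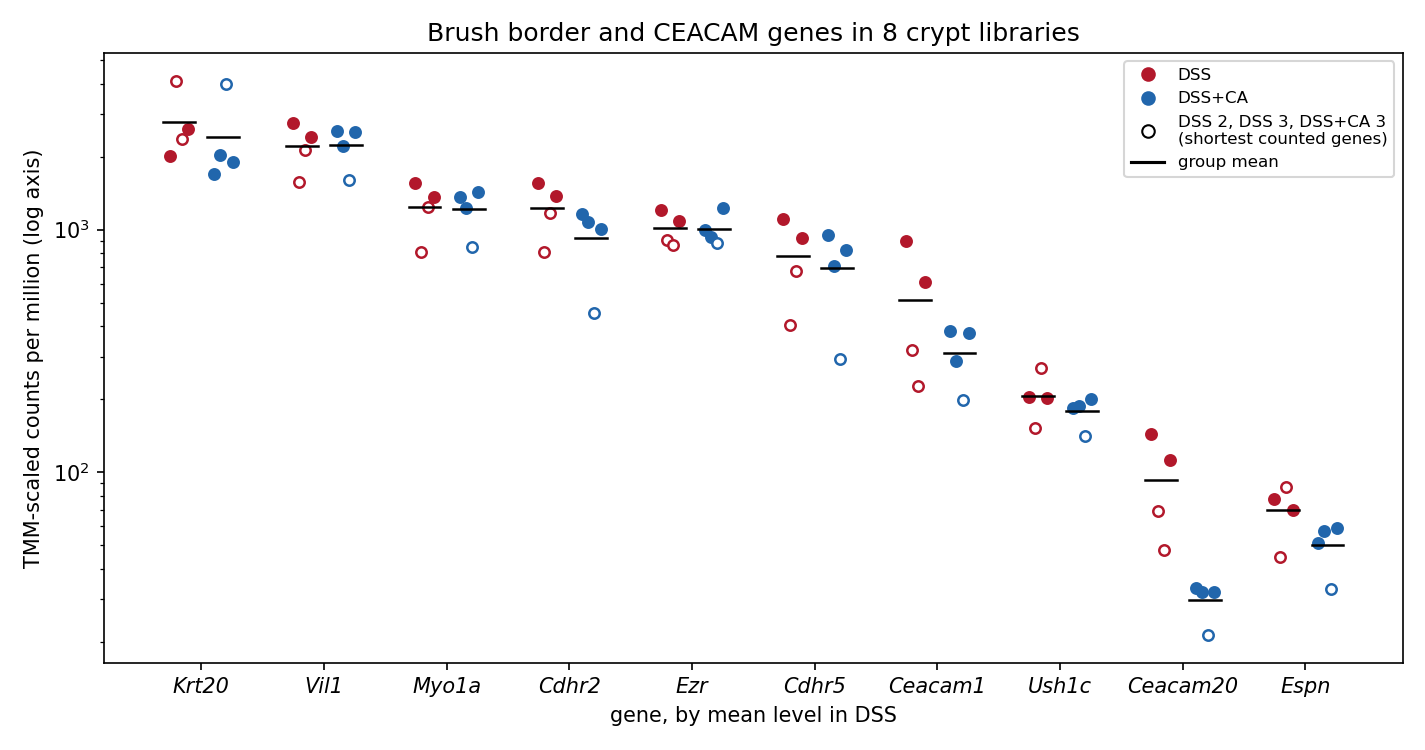
Level of each gene in the 8 libraries, in TMM-scaled CPM on a log axis, with DSS in red, DSS+CA in blue, group means as black bars and the 3 libraries of shortest counted genes as open circles. Ceacam20 was between 47.8 and 144 CPM in DSS and between 21.4 and 33.3 CPM in DSS+CA, while the other 9 genes overlapped between groups.

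**Figure D2:**
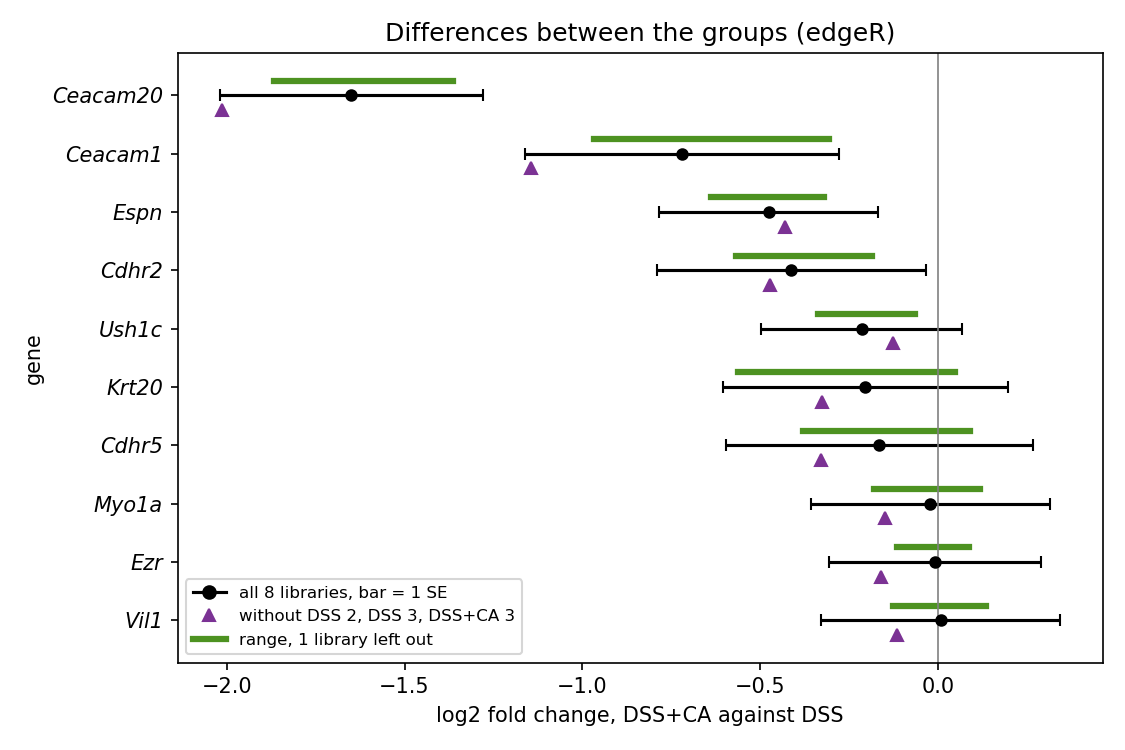
Log2 fold change of DSS+CA against DSS for each gene, with 1 SE as the black bar, the range over fits that left out 1 library in green, and the value without DSS 2, DSS 3 and DSS+CA 3 as a triangle. Ceacam20 was at -1.65, and the other 9 genes lay between -0.72 and 0.0074.

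In deposited FPKM, a level scaled by gene length and total count, the genes fell into 4 tiers whose ranges in DSS did not overlap. Krt20 was the highest in DSS at 1299 ± 226 (SD, n = 4), with 4 of 4 libraries of each group above Vil1. Vil1 followed at 529 ± 229 and Myo1a at 358 ± 162, and this order held within every library although their ranges overlapped. Cdhr5 (297 ± 174), Cdhr2 (292 ± 135) and Ezr (279 ± 107) did not differ beyond their spread in DSS. A lower tier held Ceacam1 (53.5 ± 42.2), Ush1c (37.0 ± 11.3) and Ceacam20 (32.6 ± 21.6), again within each other's spread, and Espn was lowest at 5.60 ± 2.12. In DSS+CA, Ceacam20 was at 11.4 ± 4.13 FPKM and lay below Ush1c in 4 of 4 libraries, against 2 of 4 in DSS. The deposited length of Ceacam1 was 9901 bases and that of Espn 11969 bases, above the 5806 and 8272 bases of their joined GENCODE M21 exons, which lowers their FPKM. The deposited length of Ush1c, 5304 bases, was also above its 3849 exon bases, while that of Ceacam20 was 2897 against 2888. The counts of libraries with Ceacam20 below Ush1c thus rest on the deposited length of Ush1c and show no change of rank. Per kilobase of exons, the DSS means were 32.3 CPM for Ceacam20 and 53.8 CPM for Ush1c. The gap between Ceacam1 (110 FPKM in DSS 1) and Cdhr5 (113 FPKM in DSS 2) was narrow and rests on the deposited length of Ceacam1. The tiers are therefore those of the deposited lengths only. With the exon lengths, Ezr, Cdhr2 and Cdhr5 followed in that order in DSS, the reverse of their order by FPKM, and the ranks of the other 7 genes were the same.

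The count of Vil1 in the same library served as a yardstick that needs no scaling between libraries; it was chosen after the values were seen. Myo1a followed Vil1 closely, at 51.3% to 57.7% of its count in DSS and 52.8% to 56.6% in DSS+CA. Ceacam20 was at 5.22%, 4.40%, 2.24% and 4.69% of Vil1 in DSS 1 to 4 and at 1.30%, 1.46%, 1.33% and 1.26% in DSS+CA 1 to 4. The DSS+CA libraries were thus within 1.15-fold of each other, although their Vil1 levels varied 1.59-fold, and all lay below DSS. Ceacam20 in DSS varied 2.34-fold on this measure, with DSS 3 the lowest.

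Cdhr2 was at 56.6%, 51.7%, 54.9% and 57.2% of Vil1 in DSS 1 to 4 and at 45.5%, 48.4%, 28.2% and 39.7% in DSS+CA 1 to 4. Espn was at 2.81%, 2.86%, 4.06% and 2.90% in DSS 1 to 4 and at 1.998%, 2.60%, 2.05% and 2.33% in DSS+CA 1 to 4. Both sets of ratios were lower in every DSS+CA library than in any DSS library. These 3 of 9 ratios (Ceacam20, Cdhr2 and Espn) did not overlap. The same held for 6.92% of all other tested genes set against Vil1, or 2.93% lower in DSS+CA. The result depended on the yardstick. Set against each of the 9 other genes in turn, Cdhr2 and Espn separated only against Vil1 and Myo1a, which followed Vil1 closely. Ceacam20 separated against Vil1, Myo1a, Ezr and Ceacam1, and overlapped against Cdhr2, Cdhr5, Ush1c, Espn and Krt20. Of the 45 pairs of these genes, 8 did not overlap. The share among all tested genes was counted for Vil1 as the yardstick only. The counts against other yardsticks and over pairs are therefore not shown to be particular to these genes.

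For the ratios of Ceacam20, Cdhr2 and Espn to Vil1, p was 0.0286 each in an exact permutation test, two-sided. With 70 ways to assign the libraries, this was the smallest p that the design allows. Groups that do not overlap always give this p here, so it adds nothing to the separation reported above. After Benjamini-Hochberg adjustment over the 9 ratios to Vil1, each permutation p was 0.0857. The differences in the mean log2 ratio were -1.56 for Ceacam20, -0.47 for Cdhr2 and -0.48 for Espn. Ceacam1 was at 32.6%, 20.4%, 10.6% and 25.3% of Vil1 in DSS 1 to 4 and between 12.4% and 14.9% in DSS+CA, with DSS 3 below them (exact permutation p = 0.171, adjusted 0.386). The ratios of Cdhr5, Ezr, Myo1a, Ush1c and Krt20 overlapped, with exact permutation p from 0.314 to 0.914. Leaving out DSS+CA 3 gave a difference of -0.31 for Cdhr2, and leaving out DSS 1 gave -0.36 for Ceacam1.

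**Figure D3:**
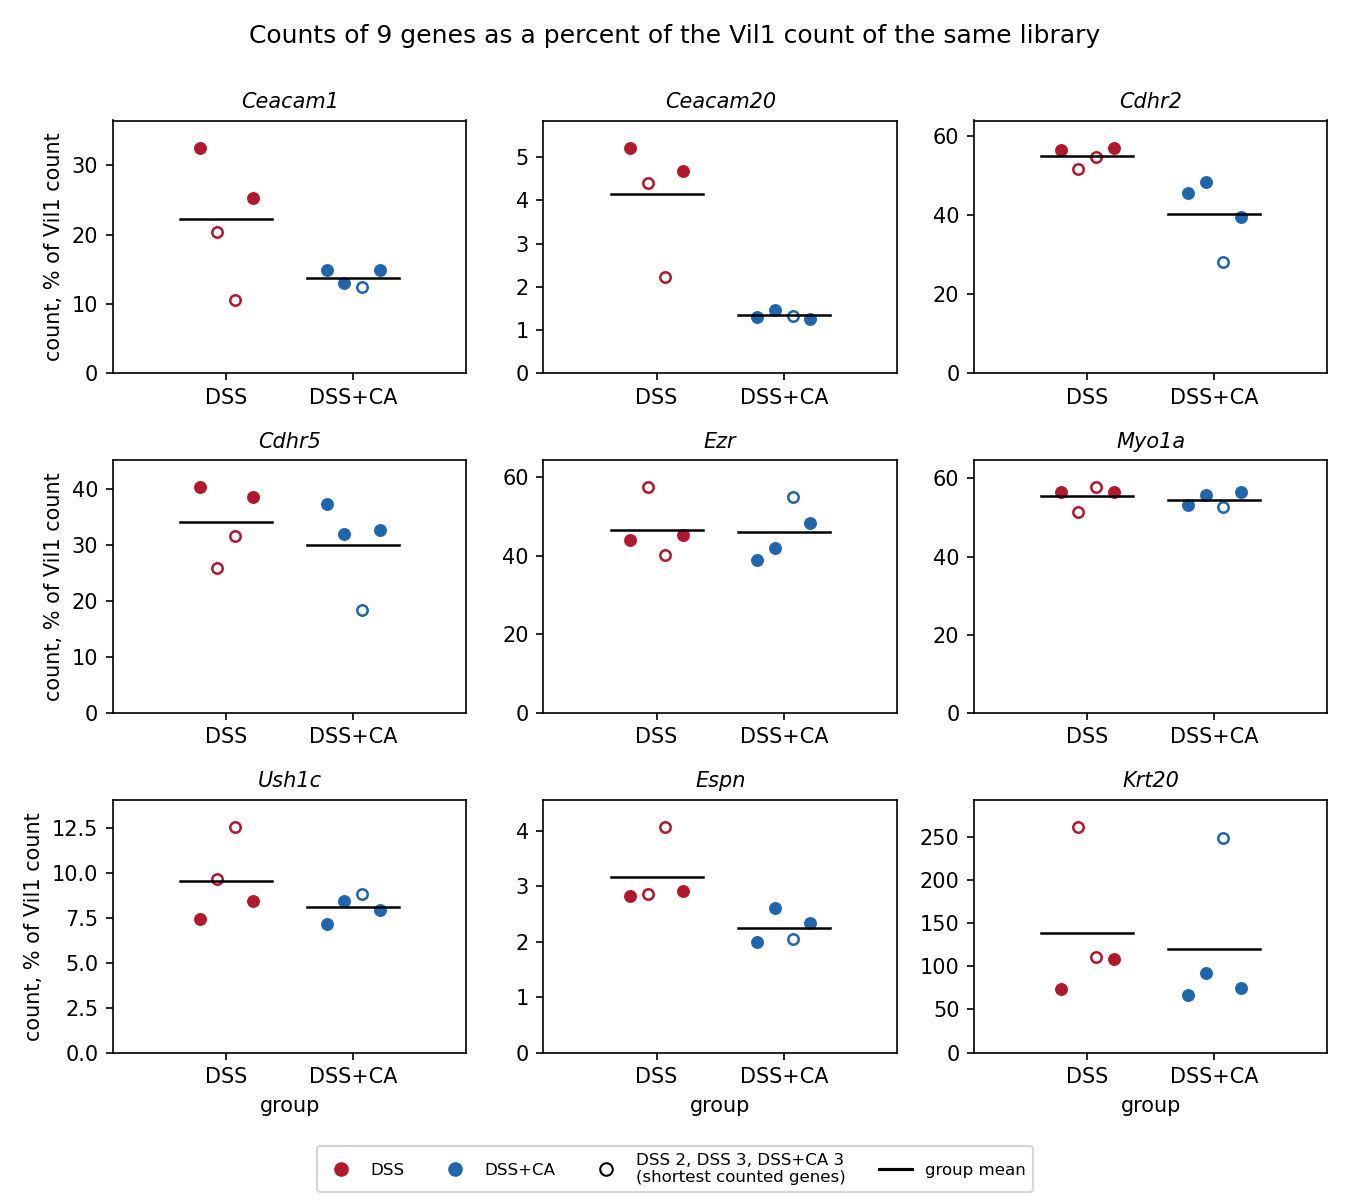
Count of each of 9 genes as a percent of the Vil1 count in the same library, 1 panel a gene with the axis from 0, group means as bars and the 3 libraries of shortest counted genes as open circles. Ceacam20 lay between 1.26% and 1.46% in DSS+CA and between 2.24% and 5.22% in DSS, Cdhr2 and Espn did not overlap either, and Myo1a stayed near 55%.

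Most of the 10 genes also varied between libraries within the groups in a similar order. DSS 2 and DSS+CA 3 were the lowest pair of libraries for 6 of the 10 genes, and within DSS+CA the library DSS+CA 3 was lowest for 9 and highest for Krt20. The share of all tested genes with that lowest pair was not counted. Over all tested genes the same 2 libraries lay at 1 end of the main axis of variation (principal component 1, 49.99% of the variance), at 60.9 and 69.3. The order is therefore not shown to be particular to these genes. Among the enterocyte markers, Fabp2, a fatty acid binding protein, was highest in DSS+CA 3 (39857 CPM), DSS 2 (24466 CPM) and DSS 3 (22669 CPM). Alpi, an apical enzyme, was lowest in DSS 2 (437 CPM) and DSS+CA 3 (486 CPM), and lactase (Lct) was lowest in DSS+CA 3 (119 CPM) and DSS 2 (538 CPM) within their groups. These markers thus did not share 1 order. DSS 2 and DSS+CA 3 were also among the 3 libraries of shortest counted genes, and the part of this in the order was not tested.

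By the root mean square distance of log2 CPM centred over the 8 libraries, the tested genes most like the mean of the 10 were Slc7a15 (0.0866), Btnl6 (0.0995), Zfp747 (0.115), Btnl2 (0.119) and Slc6a20a (0.122), where the median tested gene stood at 0.551. Ceacam20 itself stood at 0.651 from that mean and Krt20 at 0.688, the other 8 genes at 0.201 to 0.410. The same measure for Ceacam20 alone, added after its values were seen, gave Oasl2 (0.184), Npc1l1 (0.234), Cmpk2 (0.255), 4930539E08Rik (0.257) and Rnf213 (0.268).

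The wider set of brush border genes was compared through 8 lists with 114 genes, of which 113 were in the tables and 92 were tested. None of the 92 passed an adjusted p of 0.05 with edgeR in either direction, 10 had an unadjusted p below 0.05, against 7.82% of all tested genes, and 4 passed with DESeq2, against 2.22%. Without DSS 2, DSS 3 and DSS+CA 3, 10 passed with edgeR, against 6.61% of all tested genes. Over all 8 libraries their median log2 fold change was -0.16, and 56 of the 92 were below 0, against 48.1% of all tested genes. Of the 92, 9 had groups that did not overlap in CPM, in either direction, against 6.05% of all tested genes. Lack of overlap in a single list gene named below is to be read beside that share.

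In the list of the microvillus core and its linkers, 0 of 20 tested genes passed with edgeR and 2 had an unadjusted p below 0.05, with 10 below 0 and a median of -0.003. Pdzk1, an apical scaffold that holds transporters, was at 263, 451, 222 and 293 CPM in DSS 1 to 4 and at 174, 160, 127 and 172 CPM in DSS+CA 1 to 4. These groups did not overlap (log2 fold change -0.96, SE 0.308, edgeR adjusted p = 0.327). Actg1, cytoplasmic gamma actin, was at 295, 218, 300.1 and 262 CPM in DSS and at 411, 308, 439 and 622 CPM in DSS+CA, higher without overlap (0.73, SE 0.308, edgeR adjusted p = 0.570). The third actin bundler, plastin 1 (Pls1), was at 1813 ± 1009 and 1120 ± 505 CPM (SD, n = 4) with wide overlap, and Myo1c, a relative of Myo1a, at 30.3 ± 7.84 and 42.4 ± 10.9 CPM (0.49, edgeR adjusted p = 0.852).

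In the list of the intermicrovillar adhesion complex, all 6 genes were tested and below 0, with a median of -0.31. With edgeR 0 passed and 1 had an unadjusted p below 0.05. Calml4, a calmodulin-like light chain of the complex, was at 176, 286, 222 and 238 CPM in DSS 1 to 4 and at 113, 153, 169 and 118 CPM in DSS+CA 1 to 4, without overlap (log2 fold change -0.74, SE 0.285, edgeR adjusted p = 0.493). Anks4b, a scaffold that binds harmonin, was at 272 ± 150 and 143 ± 71.8 CPM (-0.93, SE 0.441, edgeR adjusted p = 0.669). Myo7b, the motor of the complex, was at 372 and 346 CPM (-0.11, edgeR adjusted p = 0.999). With total count scaling the median of all genes moved from 0.018 to 0.20, and the log2 fold change of Ush1c was then 0.0025 and that of Cdhr5 0.032.

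Of the 15 CEACAM genes, 4 were tested and 11 were not, and 6 of those had 0 counts in all libraries. With edgeR 0 of the 4 passed and 2 had an unadjusted p below 0.05, Ceacam20 and Ceacam10. Ceacam10, a family member with no membrane anchor, was at 19.1, 105, 74.1 and 50.8 CPM in DSS 1 to 4 and at 5.60, 13.5, 37.5 and 12.3 CPM in DSS+CA 1 to 4. The groups overlapped through DSS 1 and DSS+CA 3 (log2 fold change -1.86, SE 0.610, edgeR adjusted p = 0.342). Ceacam10 was lowest of its group in DSS 1, where Ceacam20 was highest. Ceacam18 was at 66.3 ± 15.3 and 82.2 ± 7.30 CPM (0.31, edgeR adjusted p = 0.926). Ceacam2, a close relative of Ceacam1 whose reads the counting could share, had 39 counts in the DSS libraries together and 19 in DSS+CA.

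Among 9 tested signalling partners of CEACAM proteins, 0 passed with edgeR and 2 had an unadjusted p below 0.05, Lck among them. Ptprh, the apical phosphatase known to act on CEACAM20, was at 231, 94.0, 84.1 and 171 CPM in DSS 1 to 4 and at 152, 128, 68.5 and 115 CPM in DSS+CA 1 to 4. The groups overlapped (log2 fold change -0.32, SE 0.388, edgeR adjusted p = 0.968). DSS 1 and DSS 4 were the highest DSS libraries of Ptprh, as they were for Ceacam20 and Ceacam1. This was not particular to CEACAM genes, since the same held for Vil1, Myo1a, Ezr, Cdhr2 and Cdhr5. Lck, a kinase of T cells that is also among the T and NK cell markers, was at 20.2 ± 2.41 and 5.48 ± 1.83 CPM (-1.87, SE 0.329, edgeR adjusted p = 0.0502). Src, a kinase of many cell types, was at 91.6 ± 32.2 and 55.7 ± 16.7 CPM (-0.72, edgeR adjusted p = 0.6995). The T and NK cell sum was lower in every DSS+CA library as well. Within the groups the sum and Lck went apart, since DSS 2 and DSS+CA 3 had the highest sums (802 and 264 CPM) and the lowest Lck (18.3 and 2.86 CPM).

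The remaining lists held 12 tested terminal web and keratin genes, 11 of apical trafficking, 15 transcription factors and 15 brush border enzymes. With edgeR 0 passed in each, and 0, 2, 0 and 1 had an unadjusted p below 0.05. Their medians were -0.19, 0.024, 0.078 and -0.34. Among the keratins and terminal web genes, the epithelial keratin Krt19 was at 837 ± 232 and 1282 ± 244 CPM with overlap (log2 fold change 0.61, edgeR adjusted p = 0.745). The tropomyosins Tpm3 and Tpm1, which coat actin filaments, had values of 0.42 and -0.47 on that scale (edgeR adjusted p = 0.869 and 0.874).

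Gata6 and Isx were higher in every DSS+CA library than in any DSS library. Gata6, a zinc finger factor of small-intestinal epithelium, was at 71.3, 36.9, 50.8 and 46.9 CPM in DSS 1 to 4 and at 80.7, 75.4, 74.7 and 76.4 CPM in DSS+CA 1 to 4 (0.58, SE 0.276, edgeR adjusted p = 0.669). Isx, an intestinal homeobox factor, was at 100.4 ± 6.72 and 137 ± 16.7 CPM (0.45, SE 0.247, edgeR adjusted p = 0.747). Klf4, a factor of differentiated epithelium, was at 164 ± 61.3 and 102 ± 20.9 CPM with overlap (-0.69, edgeR adjusted p = 0.669). Hnf4a, a nuclear factor that drives brush border genes, had means of 567 ± 155 and 625 ± 162 CPM, which also overlapped (0.14, SE 0.338, edgeR adjusted p = 0.998).

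Mep1a, a subunit of the apical protease meprin, was at 402, 696, 263 and 435 CPM in DSS 1 to 4 and at 90.8, 100.3, 284 and 128 CPM in DSS+CA 1 to 4. Only DSS+CA 3 reached the DSS range (-1.57, SE 0.445, edgeR adjusted p = 0.228). Alpi, intestinal alkaline phosphatase, was at 726 ± 216 and 1155 ± 485 CPM, and lactase (Lct) at 864 ± 339 and 496 ± 277 CPM (0.67 and -0.80, edgeR adjusted p = 0.8291 and 0.854). Stk10, a kinase of ezrin, was at 45.8 ± 18.3 and 22.7 ± 8.47 CPM without overlap (-1.01, SE 0.394, edgeR adjusted p = 0.496). Vps33b and Stx3, which act in apical vesicle fusion, overlapped between groups (-0.72 and 0.25, edgeR adjusted p = 0.604 and 0.972).

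**Figure D4:**
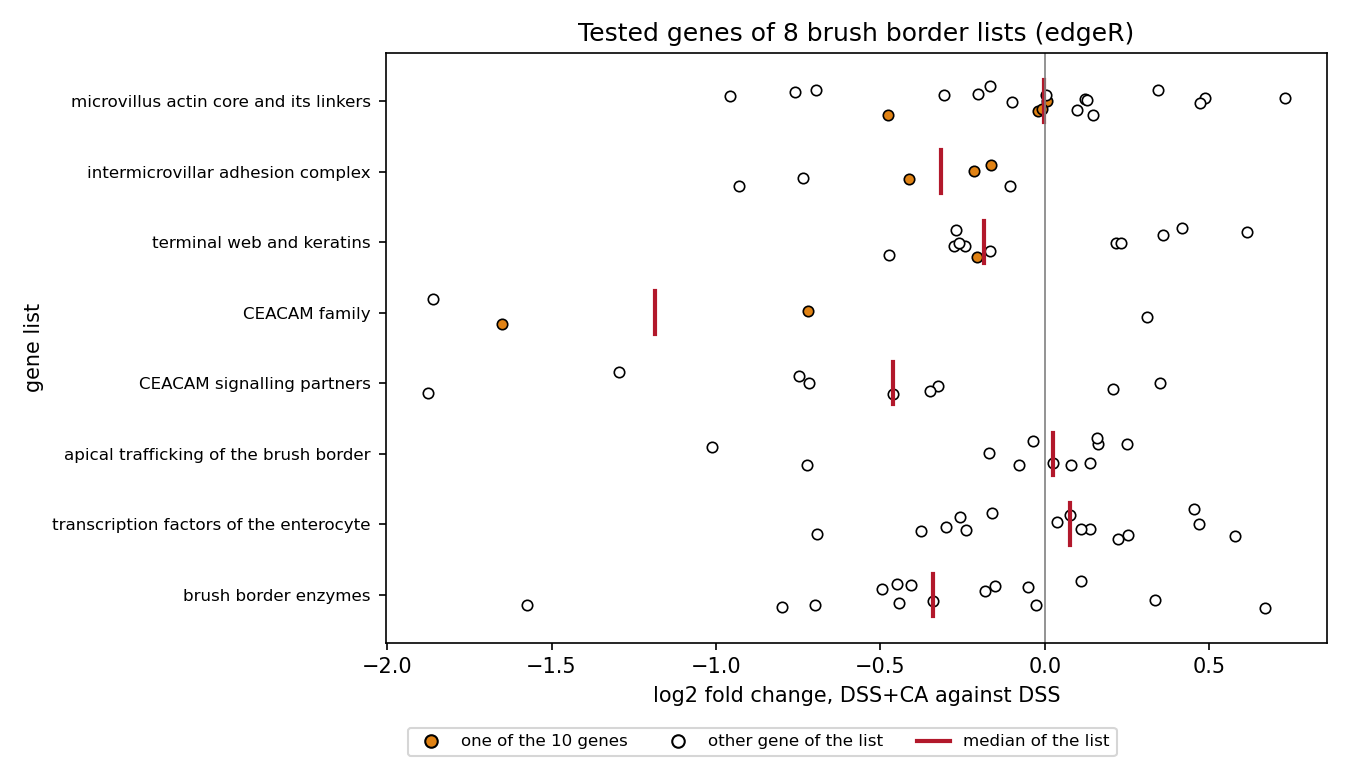
Log2 fold change of DSS+CA against DSS for the tested genes of 8 lists, with the 10 genes filled and the median of each list as a red bar; vertical scatter inside a list has no meaning. The CEACAM family spans -1.86 to 0.31, and the medians of the microvillus core, trafficking and transcription factor lists lie within 0.1 of 0.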

How the data were processed

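RNA was measured in 8 crypt libraries, 4 per group, from 200 ng of total RNA each, per the labels' protocols (TruSeq Stranded Total RNA). For every gene the authors deposited a read count, not normalized, with its FPKM, per the file headers. The submitters' processing notes list HISAT2, StringTie, GRCm38 and mm10 and give no version. What did the counting, with which annotation and strand setting, is not given in the sources used here. Deposited FPKM values equalled the count divided by a fixed length and the total count within 1% for 17718 of 17718 genes with counts in 2 or more libraries. Exons of Vil1, Ezr and Ush1c overlap other genes by 49, 4 and 120 bases, so those counts could include other reads.

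Genes with a deposited FPKM of at least 1 in at least 4 libraries were tested on counts with edgeR 4.0.16 (quasi-likelihood, TMM scaling, group as the only term; R 4.3.3, limma 3.58.1), two-sided, Benjamini-Hochberg adjusted over 9913 genes, threshold 0.05. Levels are TMM-scaled CPM. The SE was derived from the test, as the size of the log2 fold change over the root of F. DESeq2 1.42.0, other scalings and filters, a replicate block, a gene length offset and each library left out were alternatives; the fit without 3 libraries and the ratios to Vil1 were added after seeing the data. The distance between patterns used a pseudocount of 0.5 CPM. The procedure was tested on simulated data. By rule, all 10 genes were named, with up to 3 others per list by smallest unadjusted p and the 5 tested genes closest in pattern; Ceacam2, Ptprh, Pls1 and Hnf4a were added after their values were seen, as were the motif ACAAAG and the genes most like Ceacam20. The genes and lists were chosen with earlier results of these data known. The values of 1 list gene are not reported here. A planned look at protein ends was not done. Python 3.11.15, numpy 2.4.6, pandas 2.3.3, scipy 1.17.1 and matplotlib 3.10.9 were used.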

Additional observations from a re-analysis of the deposited data

Results flagged for a closer look

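Within the groups of 4, the lowest or highest library stood far from the other 3 in 4 of 38 sets of values (20 of CPM, 18 of percent of Vil1), by a gap to its neighbour, as a share of the group's range, above Dixon's critical value. Chance flags about 1 in 20 such groups. Ceacam20 in DSS+CA 3 was at 21.4 CPM with its neighbour at 32.0 CPM, a share of 0.888. Krt20 in DSS+CA 3 was at 3996 CPM with its neighbour at 2039 CPM, a share of 0.853. As a percent of Vil1, Krt20 in DSS+CA 3 was at 248% against 92.2% (0.859), and Espn in DSS 3 was at 4.06% against 2.90% (0.927).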

How the results depend on the processing

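Ceacam20, Ceacam1, Cdhr2 and Espn kept a log2 fold change below 0 in all 16 alternatives, and Ceacam20 passed the threshold in 2 of them, DESeq2 and the fit without DSS 2, DSS 3 and DSS+CA 3. Of the 10 genes, 0 passed in the edgeR test of all 8 libraries, 1 with DESeq2, 2 without those 3 libraries and 0 in every fit with 1 library left out. Genes called over the whole table were 4 higher and 9 lower. They were 51 and 169 with DESeq2, 7 and 20 with RLE size factors, and 2 and 6 with total count scaling. They were 18 and 61 with no filter, 18 and 54 with the gene length offset, and 234 and 421 without the 3 libraries. Leaving out 1 library gave 0 to 19 higher and 4 to 65 lower, with the most without DSS+CA 3 (19 and 65) and then without DSS 3 (11 and 25). No gene was higher without DSS 1, DSS 2, DSS 4, DSS+CA 2 or DSS+CA 4, and 4 were lower without DSS+CA 2 or DSS+CA 4. The cause was not tested.

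The genes near 0 changed sign. With total count scaling Cdhr5 was at 0.032, Ezr at 0.16, Myo1a at 0.16 and Ush1c at 0.0025. With no filter Ezr was at 0.062 and Myo1a at 0.048, and with filterByExpr at 0.031 and 0.016. Vil1 was at -0.028 with DESeq2, -0.028 with RLE, -0.064 with the length offset and -0.11 without the 3 libraries. With 1 library left out the ranges were -0.38 to 0.088 for Cdhr5, -0.12 to 0.087 for Ezr, -0.56 to 0.048 for Krt20, -0.18 to 0.12 for Myo1a and -0.13 to 0.14 for Vil1. For the log2 ratio to Vil1 they were -0.33 to 0.013 for Cdhr5, -0.11 to 0.084 for Ezr and -0.68 to 0.11 for Krt20.

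Same-numbered libraries did not deviate together throughout. The correlations of their deviations from the group means were 0.732, -0.318, 0.107 and 0.185 for numbers 1 to 4. DSS 1 and DSS 3 were closest to their own number, and DSS 2 and DSS 4 were not. The labels state no pairing, and these correlations cannot decide whether the samples were paired. With the replicate block 14 genes were higher and 51 lower, 0 of the 10 passed, and Ceacam20 was at -1.55 (edgeR adjusted p = 0.0539). With 4 libraries a group, differences of the size seen for Cdhr2 and Espn could not be told from the spread. Levels rest on raw counts of at least 209 per library for Ceacam20, so counting error is small beside the spread of levels between libraries. This does not extend to the Ceacam20 ratios to Vil1 in DSS+CA, whose spread was narrower (SD 0.0833% at a mean of 1.34%).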
